A study of Mus musculus with 6 samples.

Results

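This section describes 63 genes of the machinery that fuses vesicles with membranes, out of 54242 gene symbols measured in mouse dorsal root ganglia. They were picked by a rule on gene symbols that covers 9 families. These are the synaptotagmins (Syt, 17 genes), syntaxins (Stx, 15), vesicle-associated membrane proteins (Vamp, 7), SNAP proteins (Snap, 4) and syntaxin-binding proteins (Stxbp, 6). The others are the complexins (Cplx, 4), SV2 proteins (3), synapsins (Syn, 3) and Rab3 proteins (4). The rule reads no expression values, but the members were chosen with earlier results of these data known. Dorsal root ganglia (DRG) hold the cell bodies of sensory neurons beside the spinal cord, and here they were taken at L4-6 from male C57bl/6 mice of 8-10 weeks. A total of 3 libraries came from mice fed ad libitum (fed) and 3 from mice after 10 days of intermittent fasting (fasted). No label gives a genotype, a transgene or an agent other than the diet. The labels place the killing of the animals 24 hours after an event that they do not name. Ganglia were digested with Dispase II, a type II collagenase and papain, and the cells passed over a 15% BSA gradient, which enriches neurons without removing all other cells. Whether a replicate is 1 mouse or pooled mice is not in the labels, and p-values here cover the spread among libraries only, which may be technical in part.

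SNARE proteins sit on vesicles (the VAMP proteins) and on target membranes (the syntaxins and SNAP proteins), and zip into a bundle that pulls the membranes together. Syntaxin-binding proteins and complexins guide and clamp that bundle, synaptotagmins couple it to calcium, and Rab3 GTPases, SV2 proteins and synapsins tag, condition and hold the vesicles. In sensory neurons the same machinery releases glutamate and peptides at the central and peripheral endings, and inserts membrane and channels along the cell surface, while most of the mRNA lies in the cell body.

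Several of these genes make transcripts that differ in a short coding stretch, and the sequences of the most abundant ones show which form the ganglia carried. They were read from the GENCODE M21 transcripts (build GRCm38), 5′ to 3′ on the strand of the gene. The first pair is the alternative exon 5 of Snap25, 118 bases in each version, used in Snap25-201 (the form known as SNAP25b, chr2:136770057-136770174, plus strand) and in Snap25-202 (SNAP25a, chr2:136769743-136769860, plus strand). Capitals mark the 31 bases that differ, which leaves 73.7% identical.
Snap25-201: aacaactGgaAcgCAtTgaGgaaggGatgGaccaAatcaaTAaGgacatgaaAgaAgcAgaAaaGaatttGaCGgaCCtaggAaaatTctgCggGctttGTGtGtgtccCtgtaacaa
Snap25-202: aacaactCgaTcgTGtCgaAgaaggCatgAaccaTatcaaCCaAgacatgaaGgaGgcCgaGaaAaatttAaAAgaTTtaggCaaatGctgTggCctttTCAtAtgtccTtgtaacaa

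The synapsins come in a long and a short form. Syn2-203, the short form known as synapsin IIb, ends on a coding stretch (chr6:115274257-115274324, plus strand, stop codon in capitals) that the long form Syn2-201 lacks, and that the scarce Syn2-202 also holds. Syn1-201, the long form synapsin Ia, starts its last exon with 38 bases (capitals, chrX:20861572-20861609, minus strand) that the short form Syn1-202 lacks, shown with the next 15 bases (lower case) that both forms share.
Syn2-203: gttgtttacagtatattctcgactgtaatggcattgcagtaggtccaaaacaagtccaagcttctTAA
Syn1-201: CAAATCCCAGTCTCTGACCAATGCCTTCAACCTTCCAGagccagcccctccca

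Of these forms, Snap25-201 held 99.4% ± 0.10 of the gene's TPM in fed and 99.3% ± 0.11 in fasted libraries (SD, n = 3 each). TPM gives a transcript's number per 1000000 transcripts of a library, corrected for length, so levels of different genes can be set side by side. Syn1-201 held 59.8% ± 0.91 and 61.0% ± 3.01, and Syn2-203 56.9% ± 1.33 and 56.5% ± 2.11 of their genes. The ranges of the diets overlapped for each of these 3 forms, so the ganglia carried the same dominant forms under both diets.

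Of the 63 genes, 57 reached a mean of 1 TPM and were tested. The others were Syt10, Vamp9, Syt8, Cplx4, Stx19 and Cplx3, at means from 0.995 TPM (Syt10) down to 0.0023 TPM (Cplx3). Syt10 lay just outside the limit and Syt13, at 1.37 TPM, just inside it. Vamp9 was the one member of these 6 that was higher in every fasted library (0.299 to 0.609 TPM) than in every fed one (0.125 to 0.274 TPM), and Syt8 was listed at 0 in the fasted libraries and at 0.0242 to 0.0917 TPM in the fed ones. Both were below the minimum of the main test. With no minimum (limma over 29760 genes) Vamp9 had a log2 fold change of TPM + 1 of 0.28 (SE 0.10, unadjusted p = 0.029, adjusted p = 0.69) and Syt8 one of -0.07 (SE 0.03, unadjusted p = 0.061, adjusted p = 0.71), and no depth is known for TPM.

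At the other end, 7 genes averaged 500 TPM or more, 16 lay between 100 and 500, 23 between 10 and 100 and 11 between 1 and 10 TPM. The order from the top began with Snap25 (mean over 6 libraries 1705 TPM), Cplx1 (1098), Syt11 (698), Rab3a (629), Vamp2 (567) and Vamp1 (565). The 6 libraries of Snap25 lay above all those of Cplx1, and those of Cplx1 above all those of Syt11. From Syt11 down to Vamp1, each gene's libraries overlapped those of its neighbour in the order. The plasma membrane SNARE Snap25, its vesicle partners Vamp1 and Vamp2, complexin 1 and Rab3a thus all ranked high, while the partner syntaxin Stx1a (36.9 TPM) lay well below them.

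**Figure D1:**
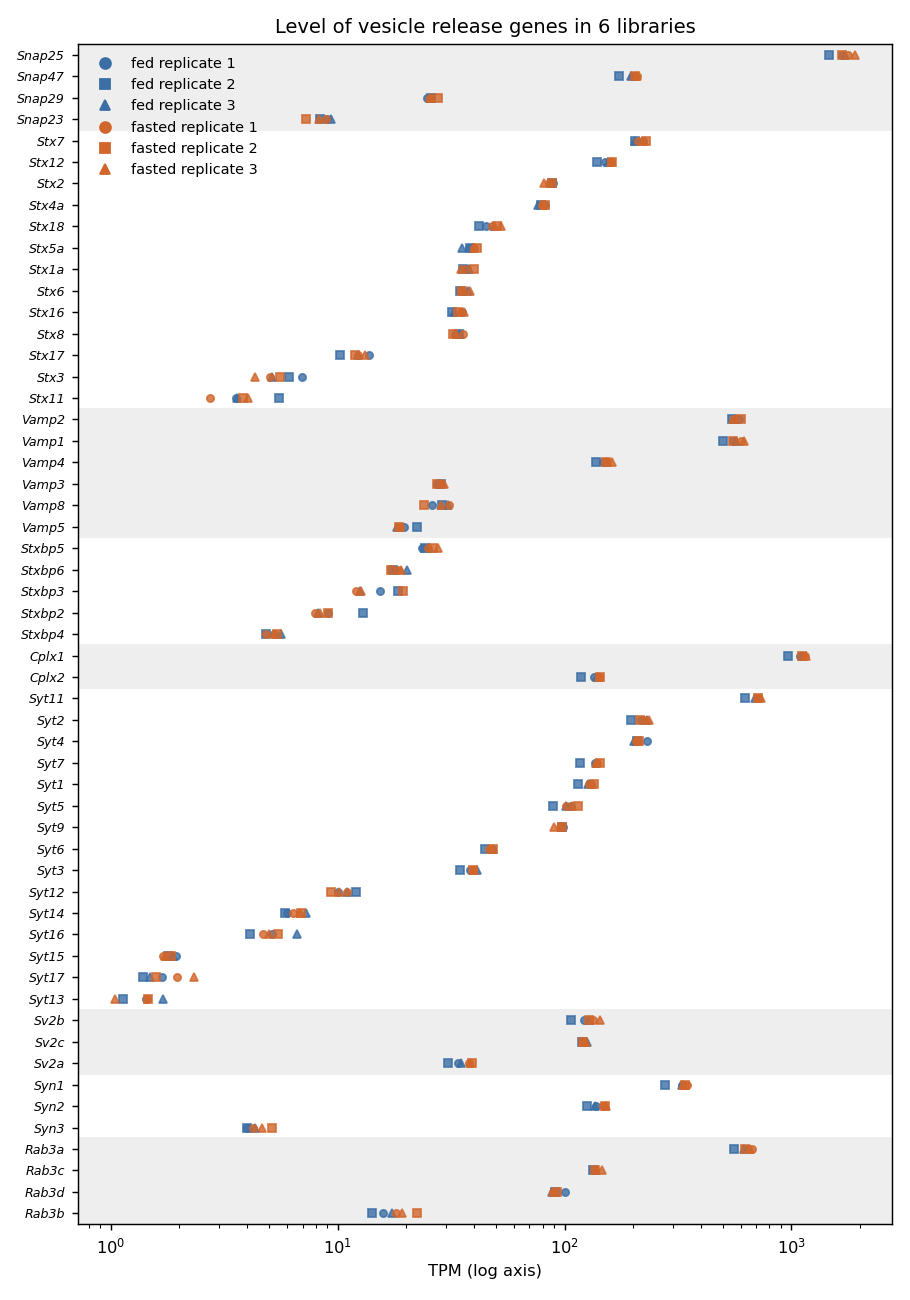
TPM (log axis) of 55 of the tested vesicle release genes in each of the 6 libraries, grouped by family with alternating shading. Blue symbols are fed and orange symbols fasted libraries, with circle, square and triangle for replicates 1, 2 and 3. The levels run from 1.37 TPM (Syt13) to 1705 TPM (Snap25) on average, and the blue squares of fed replicate 2 are often the lowest point.

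One library has to be kept in view. Fed replicate 2 was the lowest of the 6 for 33 of the 57 tested genes (57.9%, against 33.3% of all 15097 tested genes). It also held the most skeletal muscle RNA: 6 muscle markers summed to 2976 TPM there and to 248 to 474 TPM elsewhere. Much of the sums elsewhere was Pvalb, at 197 to 235 TPM against 543 TPM in fed replicate 2, and the cells it came from were not tested. Acta1, another of the 6, was at 936 TPM in fed replicate 2 and at 14.5 to 80.6 TPM elsewhere. The 7 neuronal markers, all present, summed to 15831 to 17288 TPM in fed and 16594 to 17114 TPM in fasted libraries (exact two-sided permutation test, p = 0.4), with fed replicate 2 the lowest. Of these markers 6 were higher in fasted libraries (62.5% of all tested genes were) and 1, Calca, lower (log2 fold change -0.15). Their median log2 fold change was 0.07, against 0.03 over all genes. Uchl1 and Elavl4 were higher in every fasted library (12.7% of all genes were). All 6 macrophage markers and 4 of 5 endothelial markers were lower in every fasted than in every fed library, with macrophage sums of 49.3 to 58.7 TPM fed and 32.0 to 38.5 TPM fasted. All 4 erythroid markers were higher, with sums of 1279 to 1559 TPM fed and 1710 to 3265 TPM fasted. In bulk samples like these, fewer cells of a type and less RNA per cell cannot be told apart, and the part of these shifts in the results was not tested.

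As a group, the vesicle release genes leaned toward higher values in fasted libraries, as all genes did. The difference between them and other genes was not tested. Of the 57 tested, 38 (66.7%) were higher and 19 lower in fasted libraries, where 62.5% of all tested genes were higher. The median log2 fold change was 0.06, against 0.03 over all genes, and the values ran from -0.24 (Stx3) to 0.32 (Rab3b). None of the 57 passed an adjusted p of 0.05 (limma on log2 of TPM + 1, Benjamini-Hochberg over 15097 genes), the smallest being 0.42, and 1 gene of the whole table did (0.00662%). An unadjusted p under 0.05 was reached by 6 members (10.5%), all higher in fasted libraries (6.72% of all genes did so). In the other direction 0 members reached it (3.22% of all genes). A total of 10 members (17.5%) were higher in every fasted than in every fed library, where 12.7% of all genes were. In that way 0 were lower, where 5.07% of all genes were.

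These counts moved with the libraries and the scaling. Without fed replicate 2, 35 of 58 tested members were higher (60.3%, against 59.2% of all genes), their median was 0.03 and 4 were higher with an unadjusted p under 0.05 (4.6% of all genes). Without fed replicate 3 that number was 11 higher and 1 lower (7.88% and 4.09% of all genes), and without fasted replicate 3 it was 3 higher (3.94%). Median-of-ratios scaling of the libraries left 33 (57.9%) higher and 24 lower, where 50.9% of all genes were higher, a median of 0.03, and 5 members higher and 2 lower without overlap (7.66% and 7.84% of all genes), while the split of all genes with p under 0.05 went from 1015 higher and 486 lower to 567 and 733. Rab3b, Sv2a and Syn2 were the only members with an unadjusted p under 0.05 in the main fit and in each of the 19 alternatives. All these fits reuse the same libraries, so they are not independent of each other. The share of all genes that did the same is not given here, and the adjusted p of these 3 in the main fit was 0.42 to 0.48.

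**Figure D2:**
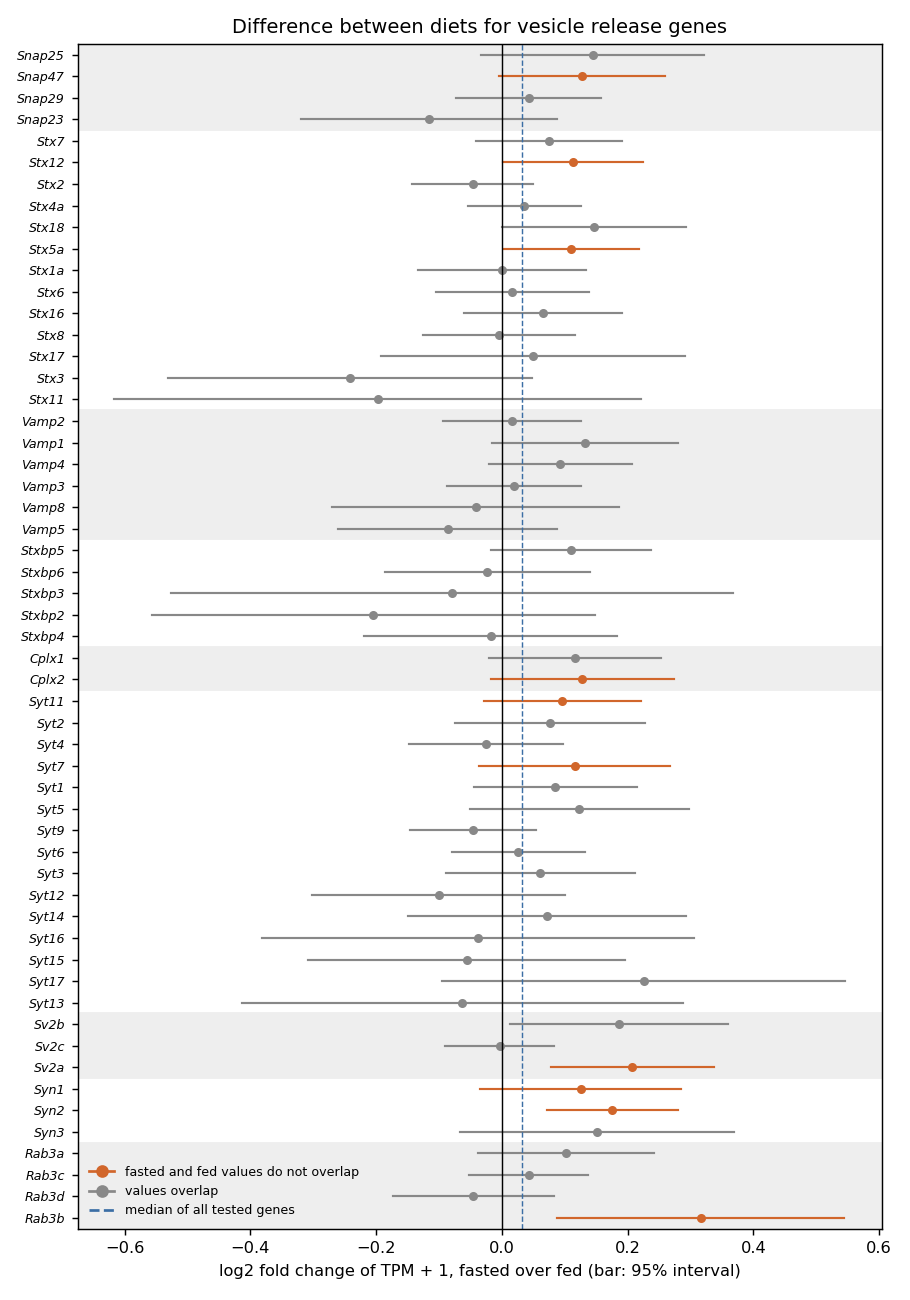
Log2 fold change of TPM + 1, fasted over fed, for 55 of the tested genes, by family and in falling order of level, with 95% intervals from limma. Orange marks the 10 genes whose fasted and fed libraries did not overlap, and the dashed line is the median of all tested genes (0.03). Most intervals cross 0, and those of Rab3b, Sv2a, Sv2b, Syn2, Stx12 and Stx5a lie above it, the last 2 narrowly.

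**Figure D3:**
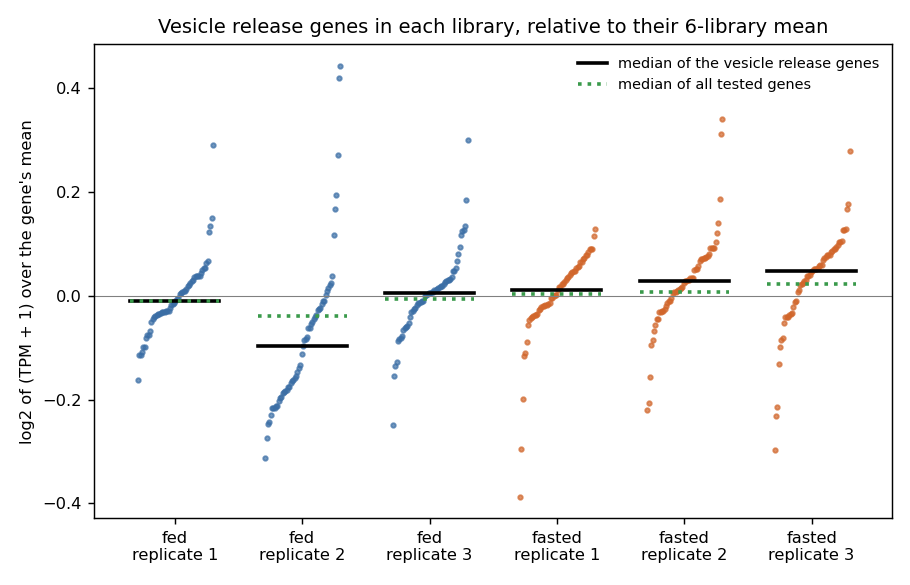
Log2 of TPM + 1 of each of the 57 genes in each library, relative to the gene's mean over the 6 libraries. Solid lines are the medians of these genes and dotted lines those of all tested genes. Fed replicate 2 sits lowest, with a median of -0.10 for the vesicle release genes against -0.04 for all genes, and fasted replicate 3 highest at 0.05.

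SV2 proteins are glycoproteins of the vesicle membrane that bind synaptotagmin 1 and set how readily vesicles respond to calcium. Sv2a (chr3:96181151-96195521) was at 33.8, 30.7 and 35.1 TPM fed and at 38.0, 39.1 and 38.2 TPM fasted. The fasted values all lay above the fed ones and spread less. The log2 fold change was 0.21 (standard error, SE, 0.06, 95% interval 0.08 to 0.34, unadjusted p = 0.0066, adjusted p = 0.42).

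Sv2b (chr7:75114894-75309262) was at 121, 107 and 129 TPM fed and at 133, 129 and 144 TPM fasted, a log2 fold change of 0.19 (SE 0.07, adjusted p = 0.50). Fed replicate 3 reached the lowest fasted value. Sv2c, the form with a narrower expression in the nervous system, lay at 122, 119 and 126 TPM against 121, 120.4 and 124 TPM. The groups overlapped, and the interval of the log2 fold change ran from -0.09 to 0.08.

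Because a share within a library does not depend on how libraries are scaled, the forms were also compared as shares of their sum. Sv2a made up 12.1% ± 0.12 of the SV2 TPM in fed and 13.0% ± 0.54 in fasted libraries, and Sv2b 43.3% ± 1.44 and 45.7% ± 1.18. Sv2c made up 44.6% ± 1.53 and 41.2% ± 0.64. The shares of all 3 were apart between the diets in every library. They are parts of one sum, so they are not separate results. Each gave an exact two-sided permutation p of 0.1, the smallest that 3 against 3 libraries allow, and an adjusted value of 0.35 over the 14 shares compared.

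Synapsins coat vesicles and hold them in the reserve pool. Syn2 (chr6:115134902-115282006) stood at 137, 125 and 137 TPM fed and at 148, 151 and 152 TPM fasted. The groups did not overlap, and the log2 fold change was 0.18 (SE 0.04, 95% interval 0.07 to 0.28, unadjusted p = 0.0050, adjusted p = 0.42). Syn1, the most abundant synapsin (chrX:20860511-20921004), was at 330.0, 278 and 328 TPM against 347, 339 and 333 TPM (log2 fold change 0.13, SE 0.07, adjusted p = 0.53). The nearest fed and fasted values of Syn1 are 330.0 and 333 TPM, and under median-of-ratios scaling the groups overlapped. Syn3, known for its early expression in development, was scarce at 3.98, 3.98 and 4.33 TPM against 4.24, 5.13 and 4.65 TPM. Syn1 kept 69.4% ± 1.02 of the synapsin TPM in fed and 68.6% ± 0.82 in fasted libraries, with overlap. Syn1 overlaps Araf and Timp1, and Syn3 overlaps Timp3, on the opposite strand. Use of strand in the counting: not given in the sources used here.

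Rab3 GTPases recruit effectors to secretory vesicles before fusion. Rab3b (chr4:108879063-108943324) had the largest log2 fold change of all tested members at 0.32 (SE 0.10, 95% interval 0.09 to 0.54, unadjusted p = 0.013, adjusted p = 0.48). Its libraries were at 15.9, 14.2 and 17.3 TPM fed and at 18.1, 22.4 and 19.3 TPM fasted, and fasted replicate 2 was the highest. Rab3a, the main form at synapses, held 71.3% ± 1.11 and 72.3% ± 1.01 of the Rab3 TPM. It was at 646, 557 and 619 TPM fed and at 669.6, 627 and 655 TPM fasted, which overlap (log2 fold change 0.10, SE 0.06, adjusted p = 0.55). Rab3c averaged 137 and Rab3d 91.7 TPM, with log2 fold changes of 0.04 and -0.05. Rab3b thus made up only 1.85% ± 0.14 of the Rab3 TPM fed and 2.22% ± 0.30 fasted. This share overlapped between the diets (exact two-sided permutation p = 0.2).

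Snap25, Vamp1, Vamp2 and Stx1a, SNARE genes of transmitter release, each overlapped between the diets. Snap25 (chr2:136713453-136782428) was at 1671, 1467 and 1723 TPM fed and at 1785, 1668 and 1915 TPM fasted (log2 fold change 0.14, SE 0.08, 95% interval -0.03 to 0.32, adjusted p = 0.53). Fasted replicate 2 lay below 2 of the fed libraries. Snap47, a widely expressed relative, was at 199.8, 174 and 197 TPM against 209, 204 and 209 TPM, without overlap (log2 fold change 0.13, SE 0.06, adjusted p = 0.51). Snap29, which serves internal membranes and autophagosomes, averaged 25.8 TPM (log2 fold change 0.04). Snap23, the form of non-neuronal and general secretion, averaged 8.51 TPM with a log2 fold change of -0.12 (95% interval -0.32 to 0.09). Its share of Snap23 plus Snap25 was 0.55% ± 0.018 fed and 0.45% ± 0.036 fasted, apart in all libraries (exact permutation p = 0.1, adjusted 0.35 over 14 shares).

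Vesicle SNAREs were led by Vamp1 and Vamp2 at nearly equal levels. Vamp2 (chr11:69088490-69092384) was at 588, 546 and 557 TPM fed and at 559, 598 and 553 TPM fasted. Vamp1 (chr6:125215551-125245964) was at 552, 498 and 568 TPM fed and at 602, 553 and 618 TPM fasted (log2 fold change 0.13, SE 0.06, adjusted p = 0.52). Both pairs of groups overlapped, and the share of Vamp1 in their sum was 48.9% ± 1.46 fed and 50.9% ± 2.49 fasted. The log2 fold change of Vamp2 was 0.02 (95% interval -0.09 to 0.13), and it was -0.02 under median-of-ratios scaling. Snap25 stood at 1.47 ± 0.063 times the sum of Vamp1 and Vamp2 in fed and 1.54 ± 0.093 times in fasted libraries, with overlap (exact two-sided permutation p = 0.4). Vamp3 (cellubrevin), the form of recycling membranes, stood at 27.5, 28.4 and 28.3 TPM against 28.6, 27.4 and 29.4 TPM. Its log2 fold change was 0.02, and -0.01 under median-of-ratios scaling. Vamp4, which works between endosomes and the Golgi, averaged 151 TPM (log2 fold change 0.09, SE 0.05). Vamp8 and Vamp5, at 28.2 and 19.4 TPM, had values of -0.04 and -0.09.

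Among the 14 tested syntaxins, 10 (71.4%) were higher after fasting and 4 lower, where 62.5% of all genes were higher. Under median-of-ratios scaling 8 were higher and 6 lower, where 50.9% of all genes were higher. The difference from other genes was not tested. Stx7, a late endosomal syntaxin, was the most abundant at 221, 204 and 204 TPM fed and 210.0, 229.6 and 223 TPM fasted. Stx1a, a synaptic syntaxin, was at 37.0, 35.8 and 37.9 TPM against 36.3, 39.7 and 34.8 TPM. Its log2 fold change was 0.00 (95% interval -0.13 to 0.13) and -0.03 under median-of-ratios scaling.

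The 2 syntaxins with an unadjusted p under 0.05 were Stx12 and Stx5a. Stx12 (also called syntaxin 13), of recycling endosomes, was at 151, 139 and 155 TPM fed and at 159.6, 162 and 159.7 TPM fasted (log2 fold change 0.11, SE 0.05, unadjusted p = 0.046, adjusted p = 0.50). Stx5a, of the Golgi, was at 37.8, 38.4 and 35.3 TPM against 39.8, 41.0 and 39.8 TPM (log2 fold change 0.11, SE 0.05, unadjusted p = 0.046, adjusted p = 0.50). Neither overlapped between the diets on TPM as deposited, and Stx5a did under median-of-ratios scaling. Stx18, of the endoplasmic reticulum, had a log2 fold change of 0.15 (SE 0.06, unadjusted p = 0.051). The lowest values belonged to the scarce Stx3 (5.52 TPM, -0.24, SE 0.12) and Stx11 (3.87 TPM, -0.20, SE 0.18), a syntaxin known from immune cells. Stx2, Stx4a, Stx6, Stx8, Stx16 and Stx17 lay between -0.05 (Stx2) and 0.07 (Stx16).

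Of the proteins that guide SNARE assembly, the complexins clamp and then promote fusion. Cplx1 was at 1086, 968 and 1112 TPM fed against 1154, 1111 and 1161 TPM fasted (log2 fold change 0.12, SE 0.06, adjusted p = 0.52). Cplx2 was at 135, 118 and 139 TPM against 142, 144 and 142 TPM, without overlap (log2 fold change 0.13, SE 0.06, adjusted p = 0.52), but it overlapped under median-of-ratios scaling. Cplx1 held 89.0% ± 0.14 and 88.9% ± 0.32 of the complexin TPM, and the retinal forms Cplx3 and Cplx4 were near 0. Among the syntaxin-binding genes, Stxbp5 (tomosyn) averaged 25.4 TPM with a log2 fold change of 0.11, and Stxbp4 5.20 TPM with -0.02. Stxbp2 (9.27 TPM), a form of blood and epithelial cells, was at 13.0 TPM in fed replicate 2 and between 7.95 and 9.07 TPM in the other libraries.

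Synaptotagmins are calcium sensors of fusion, although some members do not bind calcium. The fast sensors were led by Syt2, the form common at fast synapses of the brainstem and spinal cord, at 216, 196 and 231 TPM fed and 226, 216 and 235 TPM fasted (log2 fold change 0.08, SE 0.06, adjusted p = 0.66). Syt1 was at 131, 114 and 126 TPM against 128, 134 and 132 TPM (0.08, SE 0.06), and Syt9 at 98.3, 97.4 and 96.2 TPM against 95.5, 97.9 and 89.4 TPM (-0.05, SE 0.04). All 3 overlapped. Within their sum Syt2 held 48.0% to 50.9% fed and 48.2% to 51.6% fasted, Syt1 28.4% ± 0.84 and 29.1% ± 0.81, and Syt9 22.4% ± 1.38 and 20.9% ± 1.18.

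The most abundant synaptotagmin was Syt11, which does not bind calcium and is known from endocytosis and vesicle trafficking. It was at 708, 623 and 693 TPM fed and at 715, 712 and 735 TPM fasted. The groups did not overlap, by a gap from 708 to 712 TPM, and the log2 fold change was 0.10 (SE 0.05, adjusted p = 0.53). Syt7, the slow high-affinity sensor, was at 136, 116 and 137 TPM against 139, 144 and 138 TPM (0.12, SE 0.06, adjusted p = 0.54). Syt11 and Syt7 overlapped under median-of-ratios scaling. Syt4, found on dense-core vesicles, lay at 230.1, 208 and 202 TPM against 206, 212 and 209.7 TPM (-0.03, SE 0.05), with fed replicate 1 alone above the rest, and 0.03 without that library. Syt5 (103 TPM, 0.12), Syt6 (47.3 TPM, 0.03) and Syt3 (38.7 TPM, 0.06) overlapped between the diets. The 6 scarce forms Syt12, Syt13, Syt14, Syt15, Syt16 and Syt17, at 1.37 to 10.6 TPM, ranged from -0.10 to 0.23.

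**Figure D4:**
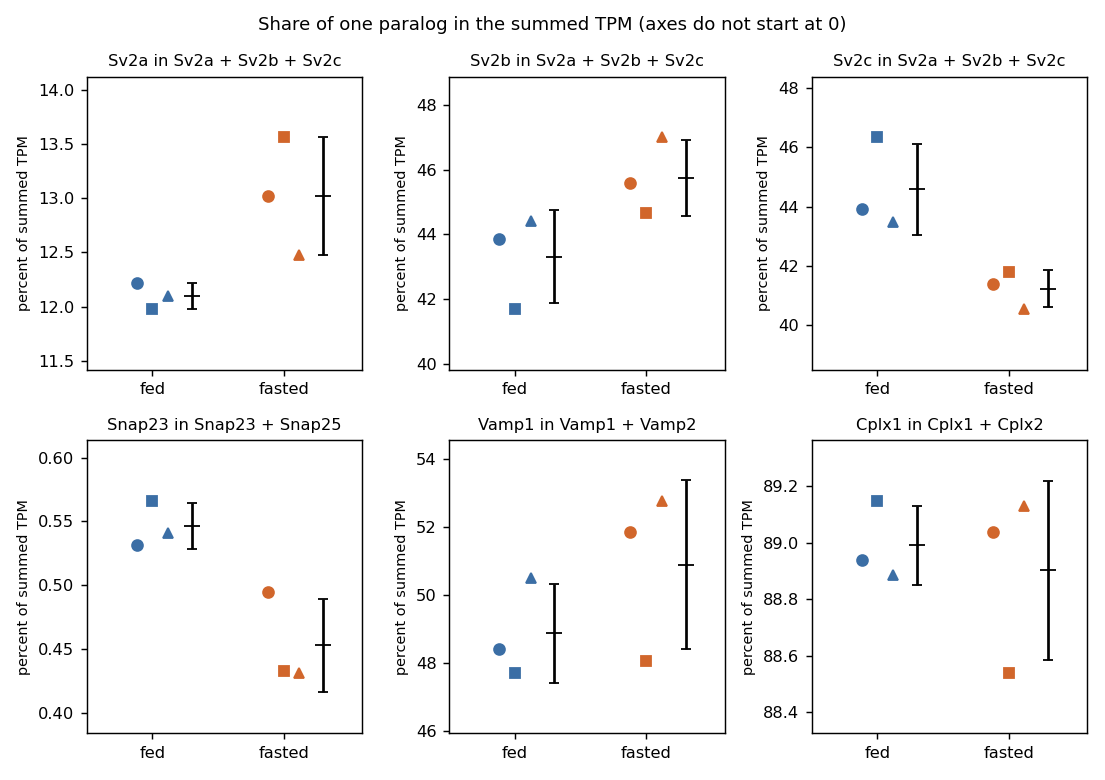
Share of one paralog in the summed TPM of its close relatives, in percent, for each library (blue fed, orange fasted, with circle, square and triangle for replicates 1 to 3), with mean and SD as black bars. The axes do not start at 0. The Sv2a, Sv2b, Sv2c and Snap23 shares are apart between the diets, while those of Vamp1 (48.9% and 50.9%) and Cplx1 (89.0% and 88.9%) overlap. The SV2 shares are parts of one sum.

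Summed over all 63 genes, the machinery made up 9448, 8473 and 9442 TPM fed and 9721, 9554 and 9964 TPM fasted. The fasted sums all lay above the fed ones (exact two-sided permutation p = 0.1, the smallest possible). They also did under TMM-type scaling, but only by a gap from 9482.0 to 9482.8 TPM. Under median-of-ratios scaling the fed and fasted sums overlapped (exact p = 0.2), and so they did without mitochondrial genes (exact p = 0.2). Scaled to the 7 neuronal markers, a choice made after seeing the data, they also overlapped (exact p = 0.3). Of the 9 family sums, those of the syntaxins, VAMP proteins, complexins and synapsins did not overlap between the diets on TPM as deposited. Under median-of-ratios scaling the synapsins alone kept that separation, at 418 to 473 TPM fed and 479.9 to 496 TPM fasted, and scaled to neuronal markers they overlapped too.

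Transcripts were then tested one by one, since a gene's sum can hide a shift between its forms. Of the 354 member transcripts, 151 averaged at least 1 TPM, 113 of them protein coding. In fasted libraries 88 (58.3%) were higher and 63 lower, against 57.5% higher among all 33197 tested transcripts, and the median log2 fold change was 0.03 both here and over all. None passed an adjusted p of 0.05 (smallest 0.42, limma), and 9 of all transcripts did (0.0271%). An unadjusted p under 0.05 was reached by 13 that were higher and 2 that were lower (4.49% and 2.71% of all transcripts). A total of 17 were higher and 6 lower without overlap (9.38% and 4.98% of all transcripts). Without fasted replicate 3, the number with p under 0.05 went from 15 to 9, and the share of all transcripts in that fit is not given here.

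The member transcript with the smallest p was Syt11-202, a short form. Its 372 coding bases compare with 1290 in the main form Syt11-201, and it starts at an exon of its own (chr3:88751912-88752051, minus strand) before joining the last 2 exons of the gene. It was at 27.5, 22.5 and 31.7 TPM fed and at 46.4, 45.8 and 50.2 TPM fasted. The groups lay far apart relative to their spread, with a log2 fold change of 0.79 (SE 0.12, unadjusted p = 0.00054, adjusted p = 0.42). Over the alternatives the log2 fold change ran from 0.67 to 0.91 and the adjusted p from 0.21 to 0.79. As a share of Syt11, it was 3.88%, 3.61% and 4.57% fed and 6.50%, 6.44% and 6.83% fasted. Syt11-201 gave 91.4% ± 1.24 and 88.8% ± 0.87, and its own level overlapped (log2 fold change 0.06).

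Vamp4-203 came next, at 28.6, 23.1 and 22.7 TPM against 36.0, 35.2 and 31.4 TPM (log2 fold change 0.45, SE 0.10, adjusted p = 0.61). It codes for the same 423 bases as Vamp4-201 and Vamp4-204, and differs in its first or last exon. Its share of Vamp4 was 16.9% ± 2.25 fed and 21.9% ± 2.19 fasted, while Vamp4-204 had 51.4% ± 1.06 and 49.0% ± 0.46. Both shares were apart between the diets. The other 4 of the 6 smallest p belonged to Stx16-204 (0.884 ± 0.478 against 2.63 ± 0.552 TPM), Syn2-203 (75.7 ± 2.85 against 85.0 ± 2.34 TPM), Sv2a-201 (32.8 ± 2.31 against 38.2 ± 0.543 TPM) and Rab3b-201 (12.9 ± 1.48 against 16.4 ± 1.52 TPM). All 4 were higher in every fasted library, with adjusted p from 0.61 to 0.67. Stx16-204 was only 5.15% of Stx16. Its fed mean lay below the minimum of 1 TPM, so it entered the test through its fasted values only. Its place among the smallest p is therefore no support for a difference.

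Shares were compared for 25 transcripts of 11 genes, of which Snap25, Vamp4 and Syt7 were added after their values were seen. A total of 5 did not overlap: Syt11-202, Vamp4-203 and Snap47-201 (80.4% ± 0.31 fed, 83.0% ± 1.22 fasted) were higher and Syt11-201 and Vamp4-204 lower in fasted libraries. Each has an exact permutation p of 0.1 and an adjusted value of 0.50. The 2 shares of Syt11 are parts of one sum, as are those of Vamp4, so they are not separate results. How often shares of other genes were apart is not given here. Snap25-202, the form with the other exon 5, was 0.61% ± 0.10 and 0.69% ± 0.11 of Snap25. Syt7 was mostly Syt7-202 (60.9% ± 0.47 and 60.7% ± 0.76), which includes 3 coding exons that Syt7-201 (17.0% ± 0.54 and 18.1% ± 0.85) skips. The 2 commonest transcripts of Rab3a code for the same length of 660 bases, and Rab3a-201 held 68.9% ± 0.83 and 69.4% ± 0.46. In Syt2, the short Syt2-203 with 207 coding bases was given 40.4% ± 1.93 and 40.0% ± 0.56 of the TPM. In Stx7 the retained-intron transcript Stx7-203 was given 30.7% ± 2.84 and 30.4% ± 1.68. Part of these 2 gene sums is therefore assigned to transcripts without the full coding sequence.

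**Figure D5:**
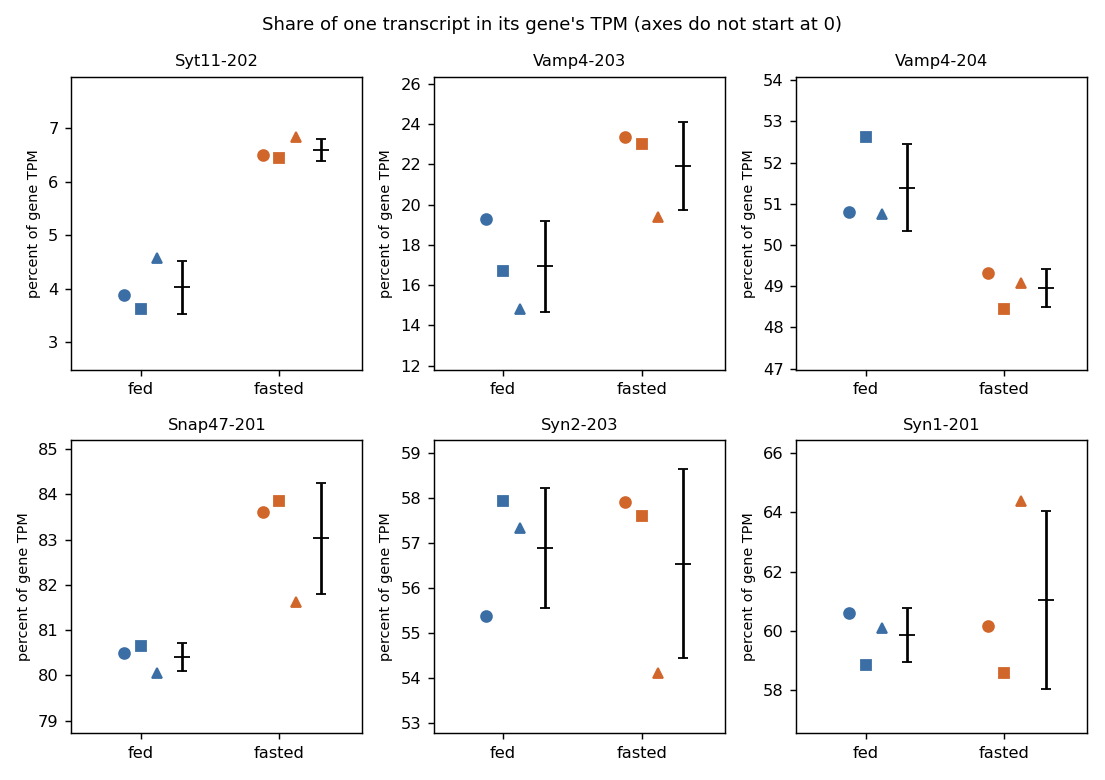
Share of one transcript in its gene's TPM, in percent, for each library (blue fed, orange fasted, with circle, square and triangle for replicates 1 to 3), with mean and SD as black bars. The axes do not start at 0. Syt11-202 goes from 4.02% to 6.59% and Vamp4-203 from 16.9% to 21.9%, without overlap, while Syn2-203 and Syn1-201 overlap.

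The genes that work beside these families were read from the same fit, in 6 lists with 93 genes in all. Of the 88 tested, 67 (76.1%) were higher and 21 lower after fasting, where 62.5% of all genes were higher, and the median log2 fold change was 0.04 against 0.03. A total of 18 (20.5%) were higher and 2 (2.27%) lower without overlap, where 12.7% and 5.07% of all genes were. An unadjusted p under 0.05 was reached by 8 (9.09%), all higher, where 6.72% of all genes did so, and 0 passed an adjusted p of 0.05 in limma. The difference of these lists from other genes was not tested. Counted anew in both directions, the related genes at that level were 2 under median-of-ratios scaling (3.76% of all genes higher and 4.86% lower). They were 3 without fed replicate 2 (4.60% and 2.54%) and 1 without fasted replicate 3 (3.94% and 2.66%). Among the 15 tested vesicle membrane genes, Syp (synaptophysin, an abundant vesicle protein that binds Vamp2) was at 559.7, 492 and 525 TPM fed and at 602, 589 and 616 TPM fasted (log2 fold change 0.20, SE 0.05, adjusted p = 0.42). Syngr1 and Scamp5 were also higher without overlap, with log2 fold changes of 0.06 and 0.08.

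In the Rab3 and Rab27 list, 8 of 10 tested genes were higher (62.5% of all genes). Madd, which loads Rab3 with GTP, was at 63.0 ± 1.54 and 67.6 ± 1.73 TPM, and Rab3gap1, which makes Rab3 hydrolyse it, at 38.5 ± 1.46 and 41.6 ± 0.75 TPM (log2 fold change 0.10 and 0.11). Both had no overlap, as had Rab3gap2 (0.10), and Sytl2, a Rab27 effector and the most abundant of the list, overlapped (114 ± 9.43 and 126 ± 3.66 TPM). Of the 23 release site and priming genes, Rimbp2 (0.12), Cadps2 (0.19), Rims4 (0.12) and Doc2b (0.20) were higher without overlap. Unc13c (-0.07) and Unc13d (-0.25) were lower without overlap, while Rph3a, the most abundant at 262 TPM, was at 0.03. Doc2b averaged 0.99 TPM fed and 1.29 TPM fasted. It passed the minimum of 1 TPM through the fasted libraries only, so its value is no support for a difference. The 9 genes of disassembly and chaperones were all above 0, as were 62.5% of all genes. Among them Napb, a SNAP cofactor of NSF, was at 265 ± 17.9 and 287 ± 9.48 TPM, without overlap. Sncg was the most abundant there, at 3522 TPM (0.03).

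Of the 10 other SNARE genes, Ykt6, Gosr1 and Bet1 were higher without overlap by 0.03 to 0.09 on the log2 scale, and Vti1b, the most abundant at 169.9 TPM, was at 0.00. Of the 21 vesicle retrieval genes, 17 (81.0%) were higher, against 62.5% of all genes. Cltc, the clathrin heavy chain, was at 386 ± 10.6 and 420.1 ± 23.4 TPM (0.12, unadjusted p = 0.039, adjusted p = 0.50). Dnm1, the dynamin that cuts vesicles free, and Sh3gl2 (endophilin A1) were higher without overlap at 0.14 each, and Ap2m1 was the most abundant at 979 TPM (0.07).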

How the data were processed

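Messenger RNA of 3 fed and 3 fasted L4-6 DRG samples was measured with a stranded kit for polyadenylated RNA, per the labels' protocols. The authors deposited TPM per transcript (140992 transcripts, each library summing to 1000000). The submitters' processing notes list Salmon 1.6.0, DESeq2 1.34.0, Trim Galore 0.6.6 and FastQC 0.11.9 and name GRCm38 and mm10 as builds, while the annotation release and the use of strand in counting are not given in the sources used here. Salmon estimates how reads shared by transcripts are split, so transcript values carry more error than gene sums. TPM keep no depth, so no count test, interval or detection limit could be given.

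TPM were summed by gene symbol, and genes (15097) and transcripts (33197) averaging at least 1 TPM were tested as log2(TPM + 1), a pseudocount of 1 that understates changes of low genes, with limma 3.58.1 in R 4.3.3 (group as the only term, intensity trend, two-sided, Benjamini-Hochberg over all, threshold 0.05). Shares, ratios and sums were compared by exact permutation over libraries (scipy 1.17.1). The code was tested on simulated data. Positions and sequences came from GENCODE M21, which held 352 of the 354 member transcripts. Figures were drawn with matplotlib 3.10.9. The members and lists were chosen with earlier results of these data known.

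Named by rule were the most abundant gene of each family, 22 genes fixed by name, every member without overlap or with an unadjusted p under 0.05, the related genes meeting the same criteria or most abundant in their list, the 2 main transcripts of the 8 most abundant genes with at least 2 transcripts of 5% or more, and the 6 transcripts with the smallest p. Other members were summarised by level and difference, and those given values outside the rule were named after these were seen. Some genes that enter the counts are not reported here by name. Alternatives were pseudocounts of 0.1 and 0.5, a minimum mean of 5 TPM or none, scaling by quantiles, median of ratios or a TMM-type factor, leaving out mitochondrial genes, untrended and robust fits, array weights, a replicate block, leaving out each library and, added after seeing the data, scaling to 7 neuronal markers.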

Additional observations from a re-analysis of the deposited data

How the results depend on the processing

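No member gene, member transcript or related gene passed an adjusted p of 0.05 (limma) in any of the settings run, so what moved were the numbers with an unadjusted p under 0.05 and small directions. Of the member genes, 6 were higher and 0 lower at that level (6.72% and 3.22% of all genes). The number higher was 3 without mitochondrial genes (3.66% of all genes) and 3 without an intensity trend (5.44%). It was 3 scaled to neuronal markers, chosen after seeing the data (1.95%). With a library left out it was 3 to 11 higher and 0 to 1 lower, where 3.94% to 7.88% and 2.52% to 4.09% of all genes were. For member transcripts, both directions together, it was 15 (4.49% of all transcripts were higher and 2.71% lower at that level). It was 9 to 15 with a library left out, where the share of all transcripts is not given here. For related genes, both directions together, it was 8, with the shares of all genes higher and lower in brackets below. It was 2 under median-of-ratios (3.76% and 4.86%), 2 under TMM-type (3.68% and 4.97%) and 5 under quantile scaling (4.39% and 4.38%). It was 3 without mitochondrial genes (3.66% and 4.96%), 4 without trend (5.44% and 3.48%) and 5 with array weights (6.17% and 3.04%). Scaled to neuronal markers it was 2 (1.95% and 4.47%), and with a library left out 1 to 12 (3.94% to 7.88% and 2.52% to 4.09%). The members' median log2 fold change of 0.06 became 0.017 scaled to neuronal markers and 0.031 to 0.078 with a library left out.

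Stx1a, Vamp2, Vamp3, Sv2c and Syt4, all near 0, changed sign. Under scaling by median of ratios, by a TMM-type factor and by quantiles, without mitochondrial genes and scaled to neuronal markers, Stx1a was at -0.031, -0.032, -0.025, -0.032 and -0.044 and, with array weights, -0.0063. In the same order Vamp2 was at -0.016, -0.017, -0.021, -0.017 and -0.029, and Vamp3 at -0.012, -0.013, -0.0078, -0.013 and -0.025. With a library left out, Stx1a ran from -0.052 to 0.041, Vamp2 from -0.019 to 0.047, Vamp3 from -0.0033 to 0.045, Sv2c from -0.023 to 0.019 and Syt4 from -0.064 to 0.030. The cause was not tested. Paralog and transcript shares do not depend on library scaling.

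Same-numbered fed and fasted libraries correlated in their deviations at 0.093, 0.114 and 0.066, each best with its own number, a hint from the data and not the design, so they share only a number. With the replicate block, 13 member genes were higher and 1 lower at an unadjusted p under 0.05, where 7.68% of all genes were higher and 3.74% lower (6.72% and 3.22% without the block), and 13 related genes passed that level. Depth is unknown, which limits every value of a few TPM.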
